A study of Arabidopsis thaliana with 4 samples.

Results

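The loci described here are the 67 whose code begins with ATCG, the prefix of genes encoded in the chloroplast genome of Arabidopsis thaliana, out of 30361 loci measured. They were compared between wild-type Columbia-0 plants given the vapour of (E)-2-hexenal, a reactive aldehyde that wounded leaves release, and plants given its solvent, acetonitrile. The hexenal group has 3 arrays, labelled as biological replicates, at 10 µM for 30 min, and the control group has 1 acetonitrile array at 30 min. All plants were wild type, each RNA came from at least 6 plants pooled, and the labels name no organ and no age. Treated plants stood in a closed 340 cm3 box with 3 µl of 1 M hexenal on paper, at 25 °C and in the light.

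Chloroplast DNA encodes core subunits of the photosystems, the cytochrome b6f complex, the ATP synthase, an NADH dehydrogenase-like complex, the large subunit of Rubisco, a plastid RNA polymerase and part of the plastid ribosome. Their partner subunits are encoded in the nucleus, as are the sigma factors that direct the plastid polymerase to its promoters and a phage-type polymerase that transcribes other plastid genes. In plastids a stretch of A added to the end of an RNA marks it for decay, whereas nuclear messengers carry stable tails. The cDNA was begun from an oligo-dT primer, per the labels' protocols, so the signal of a chloroplast locus also depends on how its RNA was primed, and the part of that in the values below was not tested.

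The reference gene table lists 85 protein-coding plastid genes under 78 distinct symbols. These include 5 symbols of photosystem I, 15 of photosystem II, 6 of cytochrome b6f, 6 of the ATP synthase, 11 of the NADH dehydrogenase-like complex, 9 and 12 of the large and small ribosomal subunits and 4 of the RNA polymerase. Neither that table nor the deposited values pair a symbol with a chloroplast locus code, so 0 of the 67 loci could be named. The chloroplast loci are therefore described together, functional classes within them were not compared, and function is followed through the named nuclear partners. No sequence was printed because the sources used here hold none for these loci.

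After 30 min of hexenal no chloroplast-encoded locus was called, and their differences from the control were small and mostly downward. Calls required a change of 2-fold or more and an adjusted p under 0.05 in limma, a linear model fitted across all loci, with Benjamini-Hochberg adjustment. Of the 67 loci, 0 were called, against 273 of 30361 loci overall (0.899%), of which 263 were higher (0.866%) and 10 lower (0.0329%). None of the 67 had an unadjusted p under 0.05, where 8.75% of all loci did (2.91% lower and 5.83% higher). Likewise 0 of the 67 were lower by 1 or more on the log2 scale on all 3 hexenal arrays, beside 0.514% of all loci. At shares of 0.899% called and 0.514% with such a fall, 67 loci would hold few or none. Those counts of 0 therefore say little. The smallest adjusted p among the 67 was 0.575 (limma).

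All chloroplast loci gave strong signals on every array. The deposited intensities ran from 7882 to 56197 with a median of 26735 on hexenal array 1, from 6987 to 54060 with a median of 24836 on hexenal array 2, and from 7827 to 52977 with a median of 25673 on hexenal array 3. They ran from 9007 to 53647 with a median of 28206 on the control array. The 3 hexenal medians therefore lay below the control median, while the ranges overlapped almost entirely. Of the 67 loci, 47 were above 20000 on all 4 arrays, as were 267 of all loci. No 2 of the 67 loci had identical values.

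**Figure D1:**
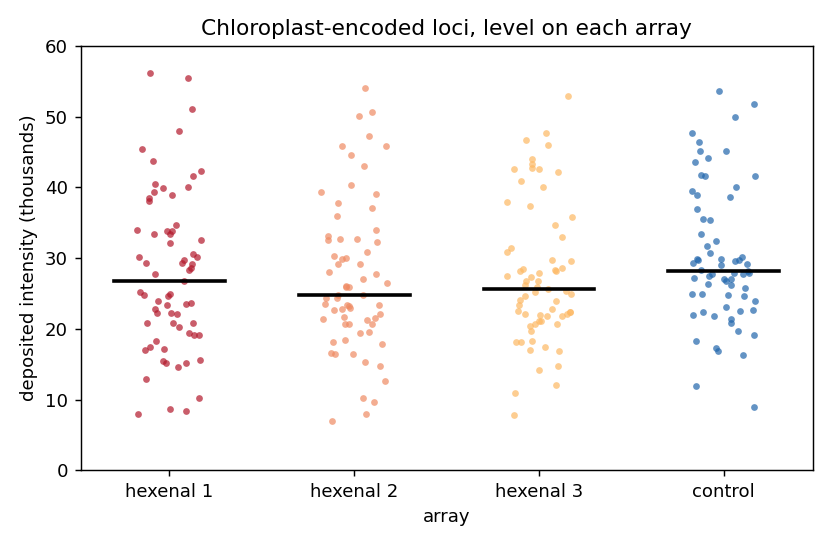
Deposited intensity (linear axis in units of 1000) of the 67 chloroplast-encoded loci on the 3 hexenal arrays and the control array. Each point is a locus and the black line is the median, which was 26735, 24836 and 25673 on hexenal arrays 1, 2 and 3 and 28206 on the control array.

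The chloroplast loci held 2.09%, 2.04% and 2.09% of the summed intensity of all loci on hexenal arrays 1, 2 and 3, against 2.297% on the control array. The 3 hexenal values lay closer to each other than to the control. With 1 control among 4 arrays there are 4 arrangements, so a permutation test over arrays cannot give a one-sided p below 0.25. In such bulk samples, fewer cells with chloroplasts and less chloroplast RNA per cell cannot be told apart.

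On the log2 scale after quantile normalization, the median difference of the 67 loci from the control was -0.121, -0.122 and -0.136 on hexenal arrays 1, 2 and 3. The medians of all loci were -0.0166, -0.0289 and -0.0360 on the same arrays. The median of the 67 mean differences was -0.15, which is a level of 0.903 times the control, beside -0.03 for all loci. The 3 array medians of the chloroplast loci had an SD of 0.00806, although single loci varied far more between arrays. All 3 medians subtract the same control array, so this SD holds none of the control's error and does not measure how well the shift is known. The dimmer and the brighter loci, given below, ran in opposite order over the 3 arrays.

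Counted by locus, 43 of 67 were below the control on hexenal array 1, 48 on array 2 and 57 on array 3. Below the control on all 3 arrays were 33 loci (49.3%), where 32.4% of all loci were. Above it on all 3 were 2 loci, or 2.99%, where 26.1% of all loci were. The other 32 lay on both sides or at the control. Without hexenal array 3, 12 chloroplast loci were above the control on both remaining arrays, where 37.4% of all loci were. In the mean of the 3 arrays 53 loci were lower and 14 higher, with 53.8% of all loci lower.

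The sizes were modest. The mean difference was -0.5 or lower at 5 loci (7.46%), where 14.5% of all loci were, and 0.5 or higher at 0, where 12.5% were. At 0.25 the counts were 19 lower, a share of 28.4% against a background of 28.6%, and 0 higher, against 23.4%. No mean difference of the 67 loci reached 0.25 upward, although 14 were above 0, and the share at -0.25 or lower was close to that of all loci. No set test was made on these counts.

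The largest difference was that of ATCG00050, the chloroplast locus with the lowest mean. It had intensities of 8591, 10198 and 14726 on hexenal arrays 1, 2 and 3, against 17232 on the control array. All 3 hexenal values were below the control, and array 3 was nearest to it. The log2 differences were -1.04, -0.80 and -0.25, with a mean of -0.70 ± 0.36 (SE) and an adjusted p of 0.661 in limma. Its 95% interval ran from -1.61 to 0.217.

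ATCG01080, the next lowest, had the smallest p of the 67 (unadjusted p = 0.0526 in limma). Its intensities were 10236, 9592 and 12022 on hexenal arrays 1, 2 and 3, against 16299 on the control array. The hexenal arrays lay closer together here than for ATCG00050, with an SD of 0.179 on the log2 scale beside 0.404. The mean difference was -0.65 ± 0.26 (SE), or 63.9% of the control level. These loci are known only by code, and ATCG01080 and ATCG00750 were singled out after their values were seen.

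At the other end, ATCG00480 had the highest mean difference. It had intensities of 56197, 50672 and 40118 on hexenal arrays 1, 2 and 3, against 41655 on the control array. Arrays 1 and 2 were above the control and array 3 slightly below it. The mean log2 difference was 0.25 ± 0.28 (SE), smaller than its error, and it was 0.38 without hexenal array 3 and 0.15 without hexenal array 1. ATCG00750, 1 of the 2 loci above the control on all 3 arrays, had 40462, 45816 and 40848 on hexenal arrays 1, 2 and 3, against 38860 on the control array. Its mean difference was 0.15 ± 0.24 (SE), and 0.09 without hexenal array 2.

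**Figure D2:**
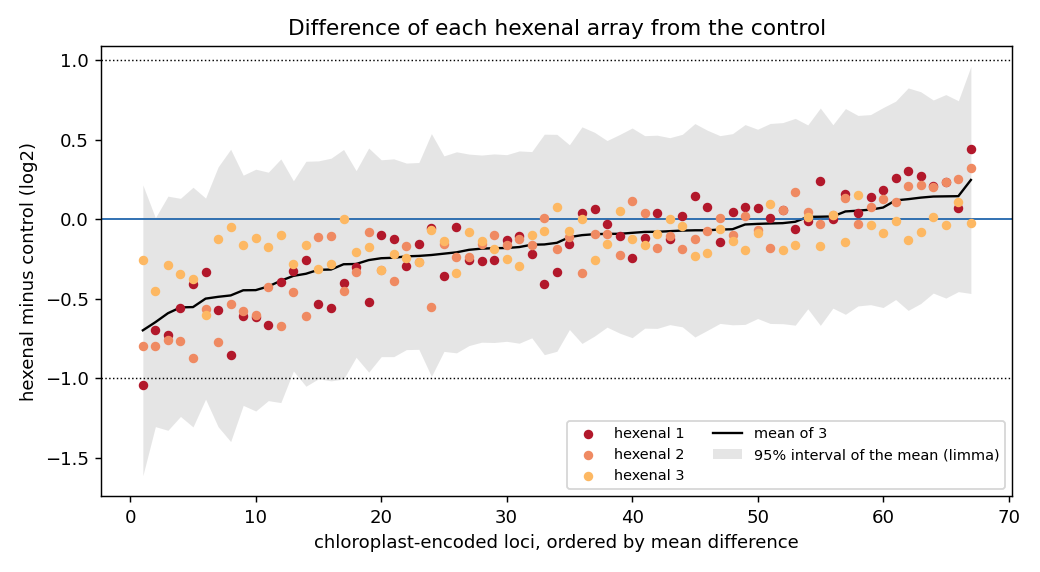
Log2 difference of each hexenal array from the control for the 67 chloroplast-encoded loci, ordered by their mean. Points are the 3 hexenal arrays, the line is their mean, the band is limma's 95% interval and dotted lines mark a 2-fold change. All 67 bands hold 0, and 16 reach a 2-fold fall.

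The intervals state what these arrays could show. The 95% interval of the mean difference held 0 at all 67 loci, each interval being taken for its locus alone. Its reach on either side of the mean ran from 0.577 to 0.920 on the log2 scale, with a median of 0.629. At 51 loci the interval lay inside a 2-fold change in both directions. At the other 16 it reached a 2-fold fall, and at 0 loci did it reach a 2-fold rise. These intervals take the control to vary like the hexenal arrays, since a single control gives no spread of its own. limma also draws the spread of each locus toward that of all loci. At loci with a small SD the interval is therefore wider than their own arrays would give. ATCG00020, for example, had an SD of 0.016 between hexenal arrays and an SE of 0.23. At loci with a large SD the interval is narrower than their own arrays would give. ATCG00050, for example, had an SD of 0.404 and an SE of 0.36. The count of 51 loci inside a 2-fold change thus rests in part on the spread of all loci.

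The spread between hexenal arrays was small at the chloroplast loci, as it was at bright nuclear loci. The SD over the 3 hexenal arrays had a median of 0.144 at the 67 loci, running from 0.0160 to 0.407, beside medians of 0.173 at the 2845 nuclear loci at or above the mean level of the dimmest of them, 0.171 at nuclear photosystem and antenna genes and 0.236 over all loci. At 29 of the 67 loci this SD was larger than the size of the mean difference from the control. The median absolute mean difference was 0.158 at the chloroplast loci and 0.265 over all loci.

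Hexenal array 3 lay nearest to the control at most of the loci with large differences. Of the 10 lowest loci by mean, array 3 was nearest at 9 and array 1 at 1. Of the 33 loci below the control on all 3 arrays, it was nearest at 19. Over all 67 loci it was nearest at 32, with 19 for array 1 and 16 for array 2. At 10 loci (14.9%) arrays 1 and 2 were above the control and array 3 was below it, a pattern shown by 11.3% of all loci. The lowest single difference was -1.04 on array 1, -0.87 on array 2 and -0.60 on array 3, and the highest were 0.44, 0.32 and 0.15 on those arrays.

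Differences were larger at the dimmer chloroplast loci. The 33 dimmer loci by mean level over the 4 arrays, at log2 levels of 12.97 to 14.70, had a median difference of -0.24. The 34 brighter loci, at 14.71 to 15.67, had a median difference of -0.05. Per array, the dimmer loci had medians of -0.33, -0.22 and -0.17 on hexenal arrays 1, 2 and 3, and the brighter loci 0.0284, -0.0482 and -0.0839.

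Of the dimmer loci 25 were below the control on all 3 arrays, and of the brighter loci 8 were. All 5 loci with a mean of -0.5 or lower were among the dimmer ones. The mean level includes the 3 hexenal arrays, so a fall itself moves a locus toward the dimmer side. Among these 5, ATCG00080 had a control intensity of 29660.5, above the control median of 28206. How much of the relation with level is built in this way was not tested. Across the 67 loci the mean level and the mean difference had a Pearson r of 0.57 and a Spearman rho of 0.57. Loci share the same 4 arrays and are not independent replicates, so no p is given. The brightest values lie near the top of the scale, the highest control level of any locus being 15.78, where differences can be compressed, and the part of that was not tested. Intensity also depends on the probes of a locus, so the order of levels is not an order of RNA amounts.

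**Figure D3:**
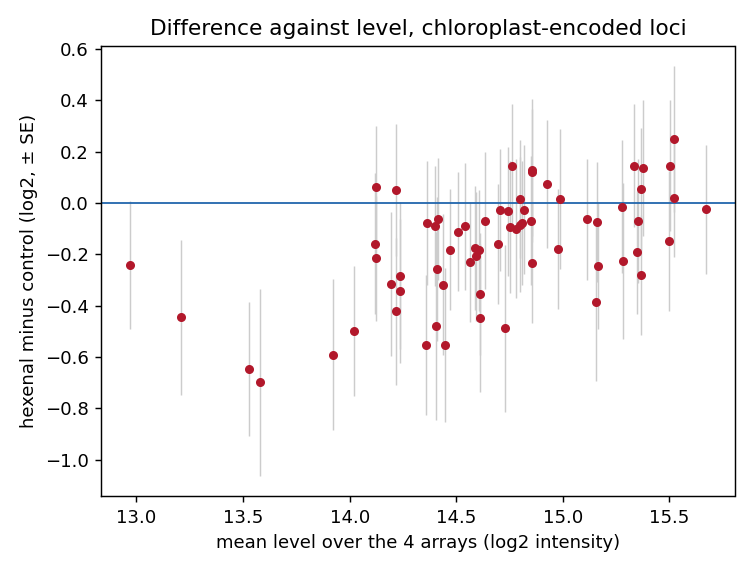
Mean log2 difference between hexenal and control, with its SE, against the mean log2 level over the 4 arrays for the 67 chloroplast-encoded loci. The dimmer loci lie lower, with medians of -0.24 for the 33 dimmer and -0.05 for the 34 brighter loci.

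Loci next to each other in code order, which follows their order along the genome, were somewhat alike. Over 66 neighbouring pairs the mean differences had a Pearson r of 0.27. The median gap between neighbours was 0.165 on the log2 scale, beside 0.204 between any pair of the 67 loci. This is a description, since neighbours may share transcripts.

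The 2845 nuclear loci with a mean level at or above that of the dimmest chloroplast locus had a median difference of -0.04. Of these, 33.0% were below the control on all 3 hexenal arrays and 25.8% above it on all 3. Called among them were 56, all higher. Their mean level includes the 3 hexenal arrays, so loci raised by hexenal can enter the group through those arrays. In these bright nuclear loci the difference did not go with the level (Pearson r = -0.0147). Another choice, added after seeing the data, took the 2384 nuclear loci at or above the dimmest chloroplast locus on the control array. Their median difference was -0.14, with 46.0% below the control on all 3 arrays and 13.5% above it on all 3. The chloroplast loci had -0.15, 49.3% and 2.99%, so their median and share below were close to those of this group. That choice favours loci that are high on the control. The difference between either group and the chloroplast loci was not tested.

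Mitochondria-encoded loci, whose RNA also lacks stable tails, were the other organelle group. The 94 loci with an ATMG code had median differences of -1.05, -0.47 and -0.22 on hexenal arrays 1, 2 and 3, and 93 of them had a mean below the control. They held 0.465%, 0.674% and 0.763% of the summed intensity on hexenal arrays 1, 2 and 3, against 0.896% on the control array. Below the control on all 3 arrays were 80 (85.1%), and 0 were called, with 0 at an unadjusted p under 0.05 (limma).

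Array 1 was farthest from the control at 87 of the 94 mitochondrial loci, and their median mean difference was -0.57, or -0.36 without that array. Array 3 was nearest to it at 76 of them. Of the 67 chloroplast loci, array 1 was farthest from the control at 30, array 2 at 23 and array 3 at 14. The 33 dimmer chloroplast loci had their lowest median on array 1 and their highest on array 3, as the mitochondrial loci did, while the 34 brighter ones ran in the opposite order. The difference between the organelles was not tested.

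Nuclear photosystem and antenna genes, whose products join the chloroplast-encoded core subunits in the thylakoid membrane, stayed near the control. Their 41 members had a median difference of 0.0048, with 0 called and 2 at an unadjusted p under 0.05. Of these 41, 5 (12.2%) were below the control on all 3 hexenal arrays, as against 33 of 67 chloroplast loci. The medians were -0.0183, 0.0327 and 0.0776 on hexenal arrays 1, 2 and 3. The list was also brighter, with a median control level of 15.05 beside 14.775 for the chloroplast loci. Of the 34 brighter chloroplast loci, 8 were below the control on all 3 arrays, and their median difference was -0.05. The part of level in this contrast was not tested.

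Among them LHCA1, an antenna protein of photosystem I, was at -0.15 ± 0.24 (SE). PSBO1, a subunit of the oxygen-evolving complex, was at -0.10 ± 0.24 (SE). PSAD-2, a stromal subunit of photosystem I, had the lowest mean of the list, -0.29 ± 0.40 (SE), and PSAD-1 was at 0.00 ± 0.26 (SE). CAB2, an antenna gene of photosystem II with near-identical copies, had the highest, 1.96 ± 0.42 (SE, adjusted p = 0.188 in limma). Its value is uncertain, since its signal was dim and near-identical copies may share probes. CAB2 had log2 levels of 8.60, 7.83 and 8.78 on hexenal arrays 1, 2 and 3, against 6.45 on the control array. Its copies CAB1 and CAB3 had control levels of 15.42 and 15.39 and differences of -0.19 ± 0.26 (SE) and 0.09 ± 0.26 (SE). The other member at an unadjusted p under 0.05 was LHCB4.3, also an antenna gene, at 1.096 ± 0.267 (SE, adjusted p = 0.257 in limma).

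The 8 nuclear subunits of Rubisco, cytochrome b6f and the ATP synthase had a median of -0.09, with 5 below the control on all 3 arrays and 0 called. RBCS1B, a small subunit of Rubisco, was the lowest at -0.70 ± 0.39 (SE), while RBCS1A was at -0.05 ± 0.24 (SE). PDE334, an ATP synthase subunit, was the highest at 0.16 ± 0.25 (SE). PETC, the Rieske protein of cytochrome b6f, was at -0.04 ± 0.23 (SE), with values below the control on all 3 arrays. Near-identical RBCS copies may share probes.

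The nuclear genes that transcribe the chloroplast genome were looked at next. Of 7 genes for sigma factors and the phage-type polymerase, 0 were called and 0 reached an unadjusted p of 0.05 in limma. Of all loci 0.899% were called and 8.75% had an unadjusted p under 0.05 in limma. At those shares nuclear lists of 7 to 16 genes would hold few or none, so counts of 0 in them say little. Their median was 0.16. SCA3, the phage-type polymerase of plastids, was the lowest at -0.31 ± 0.25 (SE) and lay below the control on all 3 arrays. SIGC was the highest at 0.25 ± 0.24 (SE) and SIGF was at 0.23 ± 0.23 (SE), both above it on all 3.

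SIGE, a sigma factor known for its induction by light and stress, was at 0.16 ± 0.31 (SE), with differences of -0.16, 0.20 and 0.44 on hexenal arrays 1, 2 and 3. SIG2 was at -0.25 ± 0.24 (SE). At SIGE the control lay within the range of the hexenal arrays.

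Of 12 proteins associated with the plastid polymerase 0 were called, 0 had an unadjusted p under 0.05 and the median was -0.10. FLN1, a fructokinase-like protein of that complex, was the lowest at -0.51 ± 0.30 (SE) and PTAC6 the highest at 0.10 ± 0.24 (SE). FSD3, an iron superoxide dismutase of the same complex, was at -0.27 ± 0.25 (SE). On hexenal arrays 1, 2 and 3 the medians of these 12 genes were 0.0165, -0.256 and -0.109, so the arrays disagreed in sign.

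Of 9 genes for plastid RNA processing and decay 0 were called and 0 had an unadjusted p under 0.05, and the median was -0.09. RIF10, the plastid polynucleotide phosphorylase that degrades and tails RNA, was at -0.01 ± 0.24 (SE). CP29, an RNA-binding protein of chloroplasts, was the lowest at -0.29 ± 0.23 (SE) and below the control on all 3 arrays. The ribonuclease gene emb2746 was the highest at 0.20 ± 0.25 (SE).

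Of 16 nuclear genes for plastid ribosomal proteins 0 were called and 0 reached an unadjusted p of 0.05. Their median was -0.04. They ran from RPL9 at -0.30 ± 0.28 (SE) to PRPL28 at 0.26 ± 0.26 (SE). On hexenal arrays 1, 2 and 3 their medians were 0.0856, -0.0948 and 0.0101.

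**Figure D4:**
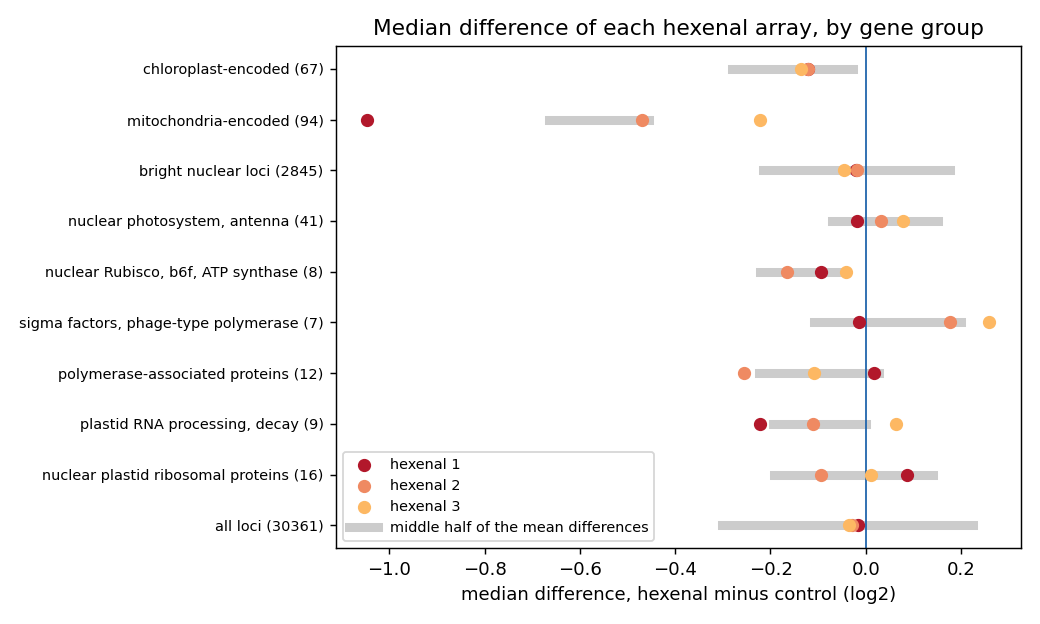
Median log2 difference of hexenal arrays 1, 2 and 3 from the control in each gene group, with the number of loci in brackets. Grey bars run from the lower to the upper quartile of the loci's mean differences. The bright nuclear loci are the 2845 chosen on the mean level of the 4 arrays. The 2384 chosen on the control level, with a median of -0.14, are not drawn. The chloroplast-encoded loci have 3 medians between -0.136 and -0.121, and the mitochondria-encoded loci run from -1.05 to -0.22.

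Marker genes were used to compare the plant material, and in the medians of the root and of the flower markers hexenal array 1 differed most from the control. The 7 green tissue markers had a median level of 15.09, 15.22 and 15.18 on hexenal arrays 1, 2 and 3, against 15.09 on the control array. Their median difference was -0.05, although CAB2 among them, with a dim control level of 6.45, was at 1.96 ± 0.42 (SE). The 6 root markers had median differences of -0.49, -0.04 and -0.18, and they were split on hexenal array 1. There PYK10, a root and seedling glucosidase, was at -1.17, EXPA7 at -0.86, SHV2 at -0.68 and NRT2:1 at -0.31. EIR1 and RCI3 went the other way, at 0.26 and 0.08. The 5 flower markers had median differences of 0.95, -0.07 and -0.01, with AP1, a floral identity gene, at 1.97 on hexenal array 1. PI was at only 0.14 on that array and lay farthest from the control on array 3, at -0.29. The flower markers were dim, with a median control level of 6.15 beside 9.90 for all loci, and AP1 reached 8.32 on array 1. None of these markers was called, but a shift on 1 array alone also raises the SE, which was 0.83 at AP1. The part of the markers' differences in the chloroplast values was not tested. Without hexenal array 1 the median of the chloroplast loci was -0.14, and 42 of 67 were below the control on both remaining arrays, as were 39.0% of all loci.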

How the data were processed

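The authors deposited 1 linear Cy3 intensity per locus and array. How they corrected background, normalized the arrays, combined probes or called detection is not stated in the labels or the file. The number of arrays, 3 with hexenal and 1 control, limits the precision. Between arrays the lower quartiles spread over 0.201 log2 units, more than the 0.1 tolerated, so log2 values of the deposited intensities were quantile normalized. limma 3.58.1 (R 4.3.3; lmFit and eBayes, 2 residual degrees of freedom) gave two-sided p-values for hexenal against control, adjusted over 30361 loci. Medians over lists are descriptions with no test. Summaries used Python 3.11.15.

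Nuclear names come from a RefSeq table of TAIR10.1, and 4 of 108 list loci were left out because it did not give them the intended name. Chloroplast loci were named as the lowest and the highest by mean difference, plus the next of each, chosen after seeing values. The rule for other named chloroplast genes could not be applied without symbols. Of the nuclear lists, the highest and the lowest members were named, and others as examples. The loci and lists were chosen with earlier results of these data known. The spread behind the p-values comes from the hexenal samples alone, and limma draws that of each locus toward the spread shared by all loci.

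Other settings were the deposited scale, median centring, cyclic loess, a quantile curve fitted without organelle loci, leaving out the dimmest 25% of loci, 16 added before the log, eBayes with trend and robust, no fold threshold, and leaving out each hexenal array.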

Additional observations from a re-analysis of the deposited data

How the results depend on the processing

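No chloroplast-encoded locus was called by limma under any of the 11 alternatives run, and the smallest adjusted p among them ran from 0.175 to 0.9998. Unadjusted p-values under 0.05 were reached by 1 of the 67 loci with 16 added before the log, by 6 with trend and robust, and by 4 without hexenal array 3. The median difference of the 67 loci stayed below 0 and was -0.137 as deposited, -0.168 with median centring and -0.108 with cyclic loess, with the median of all loci at -0.05, -0.08 and -0.00082 in the same order. It ran from -0.145 to -0.139 with each hexenal array left out. Loci below the control on all 3 arrays numbered 41 of 67 with median centring, beside 36.0% of all loci, and 31 with cyclic loess, beside 28.7%. Above it on all 3 were 7 with cyclic loess, beside 29.1%. Over all loci 628 were called with trend and robust in place of 273, and from 0 to 388 with 1 hexenal array left out, the 0 being without array 2. The cause was not tested. The 4 named loci kept their direction and stayed uncalled in 40 of 40 values. Bright nuclear loci chosen on the control level alone, an alternative added after seeing the data, numbered 2384 with a median of -0.14 and 46.0% below the control on all 3 arrays. Of these 0 were called, beside 56 of the 2845 chosen on the mean level of the 4 arrays. The choice on the control favours loci that are high there, and the choice on the mean lets in loci raised by hexenal. No paired analysis was possible because the control is a single array. Medians by functional class were not run, since the chloroplast codes could not be paired with symbols.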
